A study of Mus musculus with 16 samples.

Results

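A set of 6 genes of the neurotrophin system was followed across 16 RNA sequencing libraries of mouse brain. The 6 genes, out of 38924 counted gene rows, were Ngfr, Ntrk2, Ntrk3, Bdnf, Ntf3 and Sort1, and all 6 were among the 18350 genes with enough counts to be tested. They were selected on family membership around Ngfr, whose lower level in wild-type libraries after CFA was already known from these data. For that reason Ngfr is described without a test in every comparison that contains wild-type libraries, and its test is confined to libraries labelled RGS4KO. The series asked how RGS4, a protein that shortens G protein signalling, acts in lasting pain. Punches were labelled as ventral posterolateral thalamic nuclei, the relay for touch and pain from the body. Each library pooled 4 punches from 2 mice.

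The 4 groups had 4 libraries each. They were wild type (WT) without treatment (naive, libraries 1 to 4), RGS4KO naive (libraries 5 to 8), WT with CFA (libraries 9 to 12) and RGS4KO with CFA (libraries 13 to 16). CFA is not spelled out in the labels. Pain studies use these letters for complete Freund's adjuvant, injected to inflame a paw. The series text describes floxed mice in which Cre recombinase, delivered by an adeno-associated virus, lowers RGS4 in these nuclei, whereas the sample labels give a genotype only. Age, strain and time after CFA are not given in the labels. The labels name female mice and the extraction protocol names male mice.

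The targeted gene did not separate the genotypes. Rgs4 was at 80.9 ± 3.66 CPM in WT naive and 81.3 ± 2.74 CPM in RGS4KO naive libraries, and at 89.3 ± 6.66 CPM in WT CFA and 84.1 ± 5.50 CPM in RGS4KO CFA libraries (SD, n = 4 each). CPM are counts per M reads assigned to genes, on library sizes scaled by trimmed means. The adjusted p for Rgs4 was 0.979 in naive and 0.519 in CFA libraries (edgeR). RGS4KO is therefore used below only as the label of those libraries. Total counts per library ran from 18.1 M to 78.8 M. The relay neuron marker Slc17a6 was at 432 to 535 CPM, but Gbx2 stayed at or below 0.242 CPM and Tnnt1 between 0.552 and 1.64 CPM. Of 12 relay markers listed, only 1 stayed under 1 CPM in every library, and the list summed to 773 to 934 CPM. Among the others, group means of Ntng1 ran from 62.1 to 71.6 CPM. The serotonin neuron markers Tph2 (58.9 to 646 CPM) and Slc6a4 (42.1 to 514 CPM) were present in all 16 libraries and varied widely. These are not markers of the labelled nuclei.

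Neurotrophins are secreted growth factors that keep neurons alive and tune their synapses. Each mature factor prefers one receptor tyrosine kinase. BDNF and NT-4 (Ntf5) bind TrkB (Ntrk2), and NT-3 (Ntf3) binds TrkC (Ntrk3). The p75 receptor (Ngfr) binds all of them and pairs with sortilin (Sort1) to bind the uncleaved proneurotrophins. In sensory pathways, BDNF is known for its release from sensory endings in the spinal cord. In the adult brain, p75 is known from basal forebrain cholinergic neurons and from some glia.

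Promoter sequence was looked up for the 6 genes in the RefSeq windows of build GRCm38.p6, which held entries for 4 of them. The pair below is shown because Ngfr is the gene around which the set was built and because Bdnf has a well-known calcium-responsive promoter. Both are printed 5′ to 3′ on the gene's strand, and neither overlaps an annotated exon. In the Ngfr stretch (chr11:95587736-95587948, minus strand, 213 bases that end 38 bases before the RefSeq start and directly before the GENCODE start of the gene) capitals mark matches to GGGCGG, the GC box. In the Bdnf stretch (chr2:109692358-109692435, plus strand, the last 78 bases before 1 of its 7 RefSeq starts) capitals mark TCACGTCA, which reads TGACGTGA on the other strand, a form of the cyclic AMP response element.
Ngfr: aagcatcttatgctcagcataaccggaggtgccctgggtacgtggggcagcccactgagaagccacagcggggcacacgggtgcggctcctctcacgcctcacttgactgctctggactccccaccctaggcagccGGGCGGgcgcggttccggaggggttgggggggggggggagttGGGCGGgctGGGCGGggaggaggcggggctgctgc
Bdnf: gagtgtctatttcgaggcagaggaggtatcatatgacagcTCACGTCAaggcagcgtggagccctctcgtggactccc
The Ngfr stretch held 3 GC boxes and was 70.9% G or C. Over the 250 bases before the RefSeq start and counting both strands, GGGCGG occurred in 32.7% of 32851 mouse windows, so its presence in the Ngfr window is common. TGACGTGA occurred in 0.35% of windows and in 1 of the 7 Bdnf windows. The palindromic TGACGTCA (1.55% of windows) and the AP-1 motif TGACTCA (4.46%) matched none of the 11 windows of Ngfr, Ntrk2, Bdnf and Ntf3. The E-box CACGTG (6.02%) matched 1 of the 2 Ntf3 windows. These are letter matches and carry no evidence of binding.

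Ngfr, the p75 neurotrophin receptor, lies at chr11:95568818-95587735 on the minus strand of mm10 and has a single annotated transcript of 3446 bases. It was a low transcript, with 60 to 320 counts per library. In WT naive libraries 1 to 4 its level was 3.83, 4.71, 3.72 and 5.57 CPM. In RGS4KO naive libraries 5 to 8 it was 3.17, 2.59, 3.59 and 3.10 CPM. Every naive library labelled RGS4KO therefore lay below every naive WT library, although 3.59 and 3.72 CPM are nearly equal.

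After CFA the order of the genotypes was the opposite. Ngfr was at 2.66, 2.00, 2.89 and 2.85 CPM in WT CFA libraries 9 to 12. It was at 4.07, 3.52, 3.22 and 4.41 CPM in RGS4KO CFA libraries 13 to 16. Every WT CFA library was below every WT naive and every RGS4KO CFA library, while the RGS4KO groups overlapped. Group means were 4.46 ± 0.865, 3.11 ± 0.407, 2.60 ± 0.414 and 3.81 ± 0.537 CPM for WT naive, RGS4KO naive, WT CFA and RGS4KO CFA (SD, n = 4 each).

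**Figure D1:**
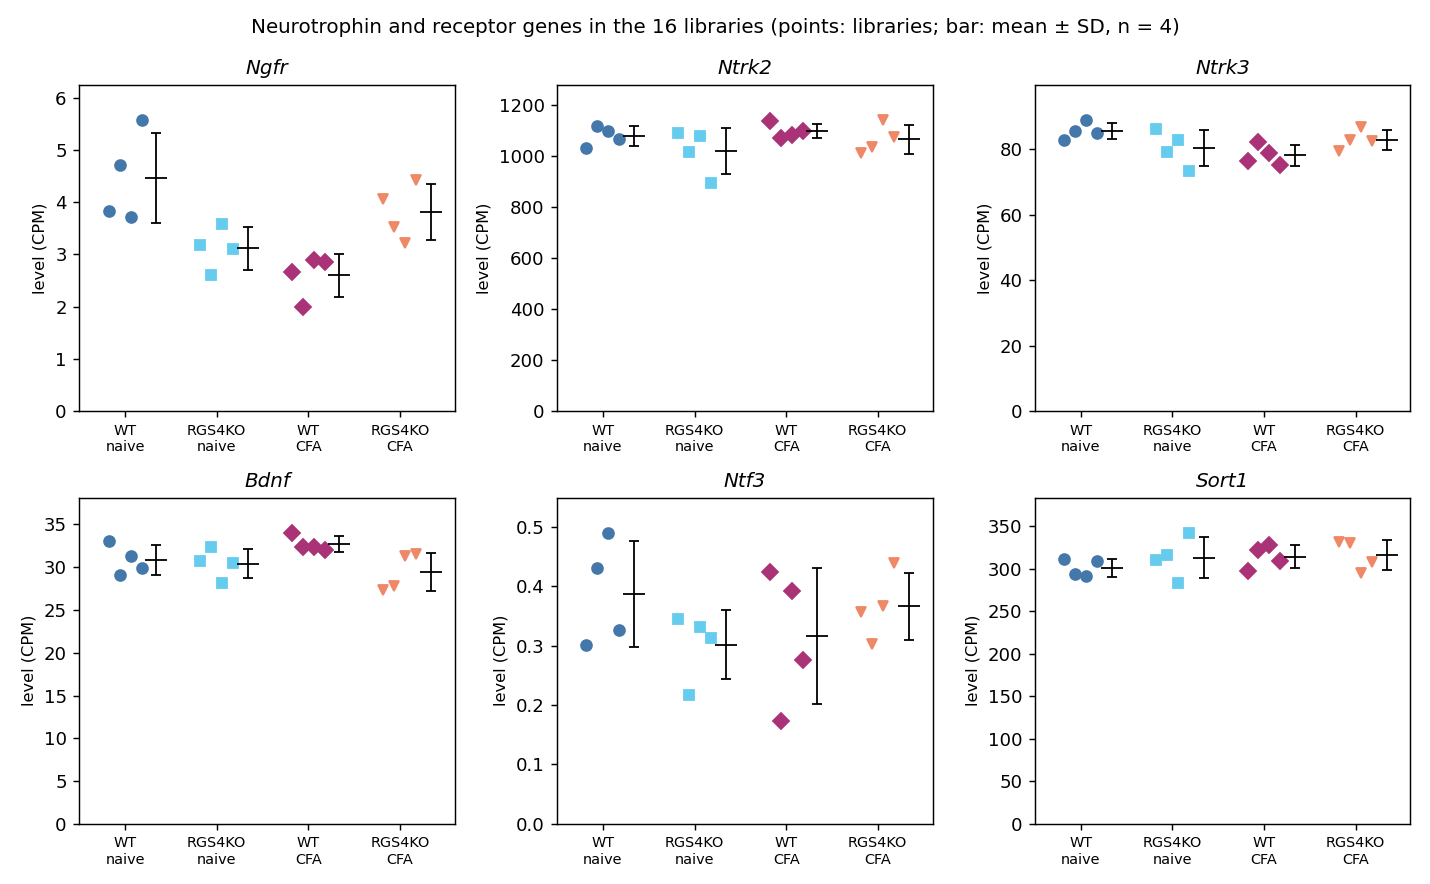
Level of each of the 6 genes (y axis, CPM, starting at 0) in every library of the 4 groups (x axis), with bars at the mean ± SD (n = 4). Ngfr libraries of WT CFA sit at 2.00 to 2.89 CPM, below all WT naive libraries (3.72 to 5.57 CPM), whereas the groups of Ntrk2 and Sort1 overlap throughout.

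As a log2 change, Ngfr differed by -0.77 (SE 0.14) between WT CFA and WT naive, a fold of 0.585. The value that chose the set is this one, so it has no p here. The difference between genotypes was -0.52 (SE 0.15) in naive and 0.57 (SE 0.14) in CFA libraries, and the 2 CFA responses differed by 1.08 (SE 0.21). The genotype differences and the difference between responses each share wild-type libraries with the change that chose the set. They are therefore no support for it or for one another. Groups did not overlap in 7.23% of all tested genes for genotype in naive libraries, in 8.03% for genotype in CFA libraries and in 11.3% for CFA in WT. Averaged over both treatments the genotypes differed by 0.03 (SE 0.10), and averaged over both genotypes CFA differed by -0.23 (SE 0.10).

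The only comparison in which Ngfr was tested did not pass. In libraries labelled RGS4KO, CFA was at 1.24 times the naive level (95% interval 0.996 to 1.54; log2 change 0.31, SE 0.15), with an edgeR adjusted p of 0.648 and an unadjusted p of 0.0539. The groups overlapped (exact two-sided permutation p = 0.114), as they did in all but 4.29% of genes. In this comparison 0 of the 6 genes were called, where 0.185% of all 18350 genes were (34 genes at an adjusted p under 0.05).

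Mean levels of markers of neurons outside the labelled nuclei differed between the groups, and their values are given beside those of Ngfr. The summed level of 9 dopamine and serotonin neuron markers ran from 830 to 1865 CPM in WT naive, 335 to 1259 CPM in RGS4KO naive, 219 to 1062 CPM in WT CFA and 857 to 1262 CPM in RGS4KO CFA libraries. Mean Tph2, the serotonin-making enzyme, was 477, 238, 231 and 357 CPM in the same order. The 2 groups with the higher Ngfr means also had the higher Tph2 means. None of the 9 markers was called in any of the 7 comparisons. With the RGS4KO label 0 of the 9 were higher in naive and 6 of the 9 were higher in CFA libraries. The 9 markers of Edinger-Westphal and oculomotor neurons, peptide and motor cells of the midbrain, summed to 33.8 to 79.4, 50.5 to 282, 281 to 384 and 74.5 to 215 CPM, highest in the group with the lowest Ngfr. Across the 16 libraries, as a description with no test, Ngfr had r = -0.62 and rho = -0.61 with the Edinger-Westphal score, r = 0.57 and rho = 0.49 with the dopamine and serotonin score, and r = -0.55 and rho = -0.65 with a score of 8 GABA neuron markers. Within groups these values of r were 0.00, 0.35 and 0.11. Without the 2 libraries farthest from the median of each score they were -0.57, 0.32 and -0.57. Ngfr and the marker lists were chosen with earlier results of these data known. The orders of group means and these values of r are therefore no evidence of a link.

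Markers of cholinergic cells, the best-known home of p75, did not rank the groups as Ngfr did. Of 8 cholinergic markers measured, 3 stayed under 1 CPM in every library, among them Lhx8 of the basal forebrain at 0.023 CPM or less. Chat, the acetylcholine-making enzyme, averaged 3.45, 5.34, 10.8 and 4.44 CPM in WT naive, RGS4KO naive, WT CFA and RGS4KO CFA libraries, highest where Ngfr was lowest. The part of punch position or cell makeup in the Ngfr values was not tested. In bulk tissue, fewer cells of a type and less RNA per cell cannot be told apart, for this and every other gene here.

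**Figure D2:**
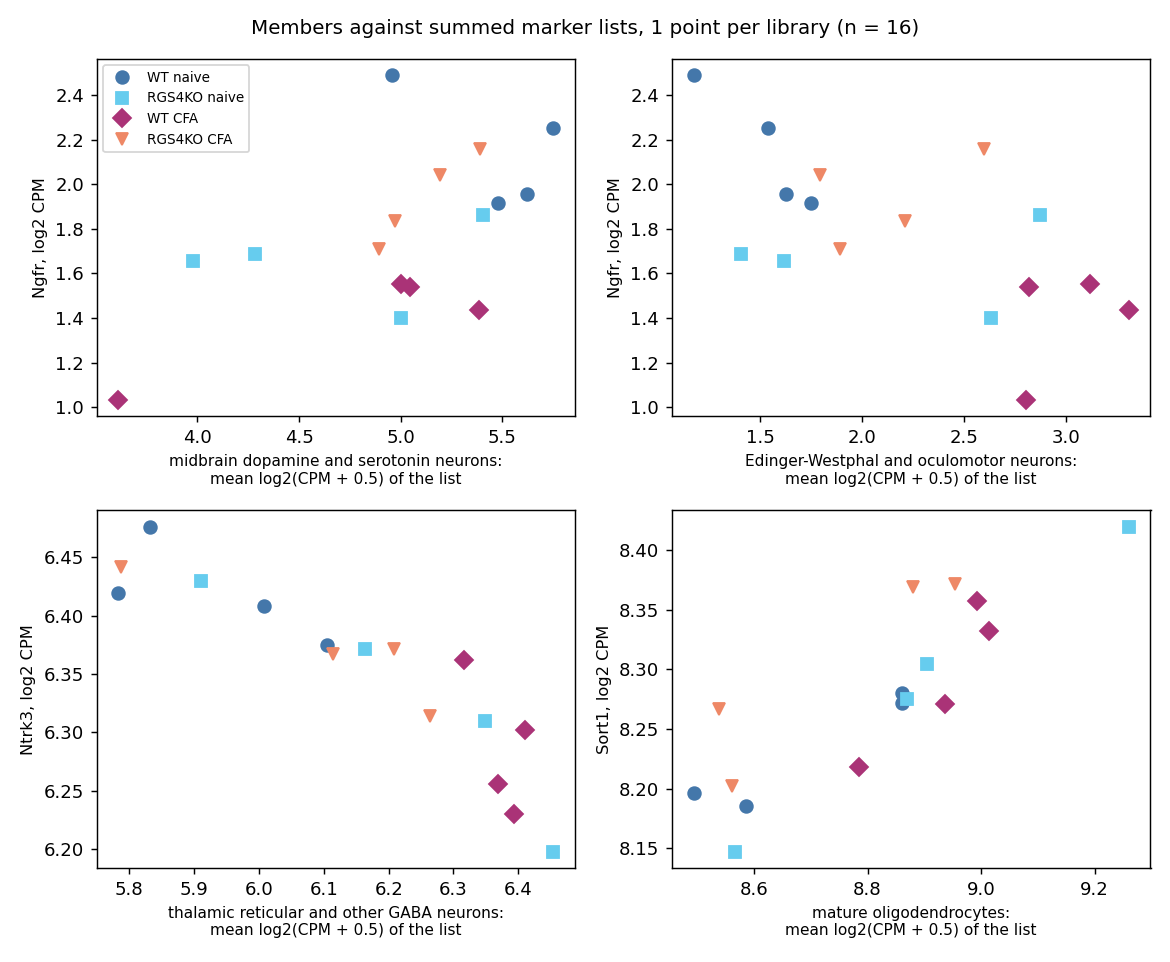
Each point is 1 library (n = 16; colour and shape give the group); y axes are log2 CPM of a gene and x axes the mean log2(CPM + 0.5) of a marker list. Ngfr against the serotonin and Edinger-Westphal lists spreads widely (r = 0.57 and -0.62), whereas Ntrk3 against the GABA list (r = -0.90) and Sort1 against the myelin list (r = 0.86) follow a line.

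Ntrk2 encodes TrkB, the BDNF receptor, and spans chr13:58806569-59133970 on the plus strand. It was by far the most abundant of the 6, with 19487 to 79485 counts per library. Its levels were 1030, 1116, 1098 and 1066 CPM in WT naive, 1089, 1014, 1076 and 895 CPM in RGS4KO naive, 1134, 1071, 1082 and 1098 CPM in WT CFA, and 1010, 1036, 1140 and 1073 CPM in RGS4KO CFA libraries. The groups overlapped in every comparison, and RGS4KO naive library 8 was lowest. Its log2 changes lay between -0.08 and 0.06 in all 7 comparisons, with edgeR adjusted p-values of 0.485 or more. The 95% interval of the fold was 0.945 to 1.09 for CFA in WT and 0.971 to 1.13 for CFA in RGS4KO. Ntrk2 has 10 annotated transcripts, 7 of them coding, and gene counts do not separate full-length TrkB from the truncated form that lacks the kinase and is prominent in astrocytes.

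Ntrk3 encodes TrkC, the NT-3 receptor, at chr7:78175959-78738012 on the minus strand. It was at 82.9, 85.5, 89.0 and 84.9 CPM in WT naive and at 76.4, 82.2, 78.9 and 75.04 CPM in WT CFA libraries. All WT CFA libraries were below all WT naive libraries, by a small margin between 82.2 and 82.9 CPM. The fold was 0.913 (95% interval 0.858 to 0.971; log2 change -0.13, SE 0.04), with an unadjusted p of 0.00579 and an edgeR adjusted p of 0.106. The exact two-sided permutation p was 0.0286, the smallest that 4 against 4 libraries allow. Groups did not overlap in 11.3% of all tested genes for CFA in WT. In this comparison 0 of the 5 tested genes of the set were called, against 2.23% of all genes (409 genes). Without RGS4KO naive library 8, which is in neither of these groups but in the shared fit, the adjusted p was 0.0437.

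In RGS4KO libraries Ntrk3 was at 86.1, 79.3, 82.7 and 73.4 CPM without treatment and at 79.5, 82.8, 86.9 and 82.5 CPM after CFA. These groups overlapped widely, and the log2 change was 0.04 (SE 0.04, edgeR adjusted p = 0.874). The difference between the CFA responses of the genotypes was 0.17 (SE 0.06), with an unadjusted p of 0.00995 and an edgeR adjusted p of 0.348. That comparison called 0 of the 5 tested genes and 0.0654% of all genes (12 genes).

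Ntrk3 followed the GABA neuron markers inversely. The list of 8 markers was led in CPM by Gad2 and Gad1, which make GABA. It also holds Spp1, at 16.4 ± 3.79 CPM in WT naive and 43.5 ± 13.2 CPM in WT CFA libraries (SD, n = 4 each). The GABA score, the mean log2 level with each marker weighted equally, had r = -0.90 and rho = -0.96 with Ntrk3 over the 16 libraries (permutation p adjusted over 90 relations 0.0018 and 0.0009). These permutations ran over all 16 libraries and did not keep the groups. The value of r was -0.82 within groups and -0.92 without the 2 libraries farthest from the median of the GABA score. With the oligodendrocyte precursor list Ntrk3 had r = -0.52 and rho = -0.72 (adjusted permutation p 0.196 and 0.0497). That r was -0.33 within groups and -0.60 without the 2 libraries farthest from the median of that list's score. The summed GABA markers ran from 1084 to 1212 CPM in WT naive and from 1234 to 1386 CPM in WT CFA libraries, which did not overlap. They ran from 1110 to 1532 CPM in RGS4KO naive and from 1060 to 1327 CPM in RGS4KO CFA libraries. The part of this difference in the Ntrk3 values was not tested.

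Sort1 encodes sortilin, the sorting receptor that partners p75, at chr3:108284082-108361511 on the plus strand. It was at 311, 293, 291 and 309 CPM in WT naive, 310, 316, 283 and 342 CPM in RGS4KO naive, 298, 322, 328 and 309 CPM in WT CFA, and 331, 330.5, 295 and 308 CPM in RGS4KO CFA libraries. The groups overlapped in every comparison. Its log2 changes were between -0.05 and 0.06 over the 7 comparisons, with edgeR adjusted p-values of 0.561 or more. The antisense gene Gm12523 shares 338 exonic bases with Sort1, and reads there cannot be told apart without strand.

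Sort1 followed the level of myelin transcripts from library to library. Sort1 had r = 0.86 and rho = 0.85 with the mean log2 level of 9 mature oligodendrocyte markers (permutation p adjusted over 90 relations 0.0018 and 0.0036). The value of r was 0.94 within groups and 0.80 without the 2 libraries farthest from the median of this marker score. Ntrk2 ran the other way, with r = -0.69 and rho = -0.58 (adjusted permutation p 0.0488 and 0.139). That r was -0.87 within groups and -0.44 without the same 2 libraries. Sort1 also ran against the choroid plexus and ependyma list, with r = -0.77 and rho = -0.73 (adjusted permutation p 0.0216 and 0.0497). That r was -0.81 within groups and -0.75 without the 2 libraries farthest from the median of that list's score. Between the receptors themselves r was -0.73 over the 16 libraries and -0.87 within groups, as a description. All these values share libraries and scaling.

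Bdnf, the ligand of TrkB, lies at chr2:109674700-109727007 on the plus strand and had 510 to 2149 counts per library. It was at 33.1, 29.1, 31.3 and 29.9 CPM in WT naive and at 34.05, 32.3, 32.4 and 32.0 CPM in WT CFA libraries, which overlapped (fold 1.06, 95% interval 0.983 to 1.14; edgeR adjusted p = 0.428). In RGS4KO libraries it was at 30.7, 32.3, 28.1 and 30.5 CPM without treatment and at 27.3, 27.8, 31.3 and 31.5 CPM after CFA (fold 0.963, 95% interval 0.890 to 1.04; edgeR adjusted p = 0.867). The CFA libraries of the 2 genotypes did not overlap, since the highest RGS4KO library (31.5 CPM) was just under the lowest WT library (32.0 CPM). For genotype in CFA libraries, groups did not overlap in 8.03% of all tested genes.

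That genotype difference in CFA libraries was a fold of 0.898 (95% interval 0.833 to 0.969; log2 change -0.16, SE 0.05). Its unadjusted p was 0.00764, its edgeR adjusted p 0.179 and its exact two-sided permutation p 0.0286. In naive libraries the genotypes differed by -0.02 (SE 0.05, edgeR adjusted p = 0.934). The difference between the CFA responses was -0.14 (SE 0.08, edgeR adjusted p = 0.559). Genotype in CFA libraries called 0 of the 5 tested genes and 1.6% of all genes (294 genes), and genotype in naive libraries called 0 of the 5 and 1.45% (266 genes). Of 90 relations with marker lists, none of the 15 that involved Bdnf passed adjustment. The antisense gene Gm45346 shares 896 exonic bases with Bdnf and was not counted separately, so its reads could be counted as Bdnf.

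Ntf3, which encodes NT-3, lies at chr6:126101412-126166910 on the minus strand and was close to the limit of detection, with 5 to 28 counts per library. It averaged 0.387 ± 0.0888, 0.301 ± 0.0582, 0.316 ± 0.114 and 0.366 ± 0.0560 CPM in WT naive, RGS4KO naive, WT CFA and RGS4KO CFA libraries (SD, n = 4 each). All groups overlapped. The 95% interval of its fold was 0.543 to 1.16 for CFA in WT and 0.767 to 1.82 for CFA in RGS4KO. Folds within these wide bounds remain compatible with the counts. The order of its group means was that of Ngfr except between WT CFA and RGS4KO naive, and over libraries the pair had r = 0.57 (0.47 within groups). With the choroid plexus and ependyma list Ntf3 had r = 0.69 and rho = 0.68 (permutation p adjusted over 90 relations 0.0488 and 0.0681). That r was 0.73 within groups and 0.65 without the 2 libraries farthest from the median of that list's score. The list was led by the ciliated-cell genes Foxj1 and Ccdc153, while the choroid plexus genes Ttr and Kcnj13 stayed below 1.85 and 0.221 CPM.

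**Figure D3:**
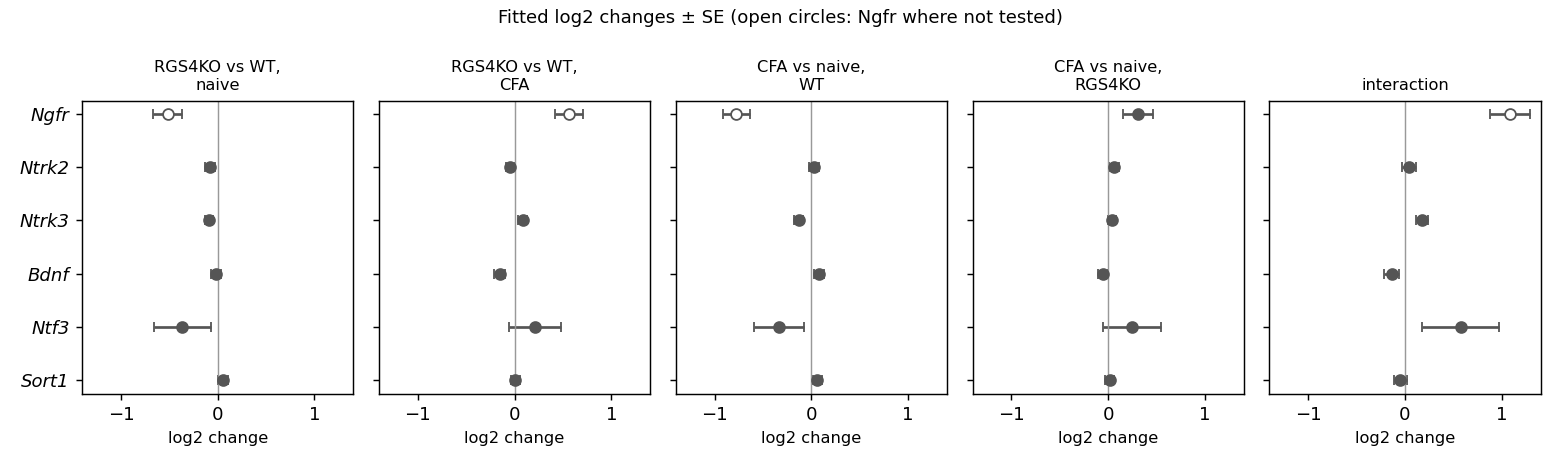
Fitted log2 change ± SE (x axis) of each gene (rows) in 5 comparisons (panels), with open circles where Ngfr was not tested. Ngfr changes side between the panels, from -0.77 for CFA in WT to 0.57 for RGS4KO against WT after CFA. Its interaction value is 1.08. Ntrk2, Ntrk3, Bdnf and Sort1 stay between -0.16 and 0.17 in all 5 panels.

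The average effects gave the same counts. The average effect of genotype called 0 of the 5 tested genes and 3.73% of all genes (685 genes), and the average effect of CFA called 0 of 5 and 1.81% (332 genes). Bdnf was the 1 gene of the 5 with an unadjusted p under 0.05 there, at a log2 change of -0.09 (SE 0.04) for genotype (unadjusted p = 0.0333, edgeR adjusted p = 0.284). DESeq2 also called 0 of the tested genes in all 7 comparisons. Across the comparisons the unadjusted p was under 0.05 for Ntrk3 in 2 and for Bdnf in 2. Over all genes, 7.81% to 17.6% had such a p, depending on the comparison.

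Ntf5, encoding NT-4, was rarer still. It had 1 to 11 counts per library and averaged 0.127 ± 0.0609, 0.0926 ± 0.0488, 0.169 ± 0.0867 and 0.140 ± 0.0594 CPM in WT naive, RGS4KO naive, WT CFA and RGS4KO CFA libraries (SD, n = 4 each). It fell under the filter on low counts and was not tested.

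Per length, Ntrk2 and Sort1 stood well above the other 5 genes compared. CPM were divided by the kilobases of all annotated exons. The means over 16 libraries were 55.2 for Ntrk2, 41.1 for Sort1, 4.96 for Bdnf, 2.71 for Ntrk3, 1.01 for Ngfr, 0.200 for Ntf3 and 0.0498 for Ntf5, in CPM per kb. The 7 genes kept this order in 16 of 16 libraries, and no library of a higher gene fell below any library of the next. With the longest coding transcript as the length, Ntrk2 was at 122 and Ntrk3 at 4.15 CPM per kb, and the order of the means was the same.

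**Figure D4:**
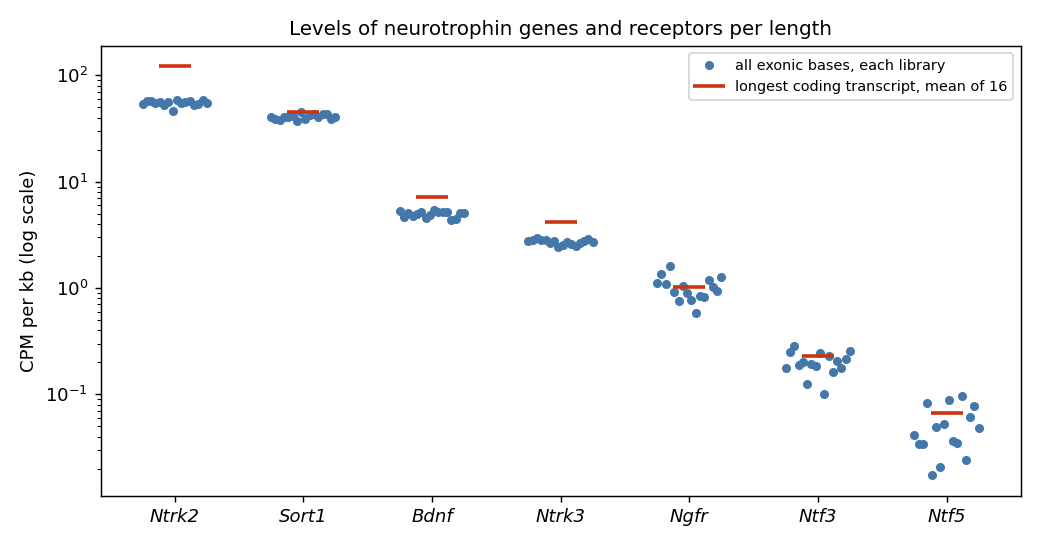
Level per length (y axis, CPM per kb, log scale) of 7 genes (x axis); points are the 16 libraries over all exonic bases and lines the mean with the longest coding transcript. The genes form separate steps from Ntrk2 (mean 55.2) down to Ntf5 (mean 0.0498).

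The receptors that share ligands or partners with p75 showed no called member. Of 11 genes of the sortilin family and p75 co-receptors (such as Sorl1, Sorcs1 to Sorcs3, Lingo1 and Rtn4r), 0 passed in any of the 7 comparisons. Their median log2 change for CFA in WT was -0.05, against -0.00 over all genes. Of 13 tested genes that cleave proneurotrophins or release them, 1 was called in naive libraries, namely Cadps2, a factor for dense-core vesicle release (log2 change 0.22 with RGS4KO, edgeR adjusted p = 0.0353), where 1.45% of all genes were called. This call was lost without any 1 of WT naive libraries 1 to 4 or RGS4KO naive libraries 5, 6 and 8, with an adjusted p of up to 0.268 over all alternatives.

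Among adaptors of the receptors, single genes passed. Ndn, encoding necdin, which binds p75, was at 425 ± 23.7 CPM in WT CFA and 547 ± 18.4 CPM in RGS4KO CFA libraries (SD, n = 4 each) and rose with the RGS4KO label by 0.36 on the log2 scale (edgeR adjusted p = 0.00398). It was at 497 ± 53.2 CPM in WT naive and 545 ± 25.7 CPM in RGS4KO naive libraries. Adam17, the protease that sheds p75, was at 30.2 ± 1.44 CPM in WT CFA and 25.9 ± 1.64 CPM in RGS4KO CFA libraries and fell by 0.22 (edgeR adjusted p = 0.0354). The call of Ndn held in all 26 alternatives. That of Adam17 held in 18 and was lost without any 1 of RGS4KO naive library 6, WT CFA libraries 9, 11 and 12 and RGS4KO CFA libraries 14 and 16, with an adjusted p of up to 0.332. These were the 2 called genes of 24 in the p75 list for genotype in CFA libraries, where 1.6% of all genes were called. In that comparison the list's median was -0.01 and that of all genes -0.00.

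Of 29 adaptors of Trk receptors, Kidins220, a scaffold that binds Trk receptors and p75, was called for the average effect of genotype, as were 3.73% of all genes. It rose with the RGS4KO label by 0.12 on average over the treatments (edgeR adjusted p = 0.0100), from 521 ± 6.52 to 553 ± 18.04 CPM in naive and from 520 ± 20.5 to 576 ± 29.2 CPM in CFA libraries (SD, n = 4 each). Kidins220 was also called for genotype in CFA libraries (log2 change 0.15, edgeR adjusted p = 0.0391), where 1.6% of all genes were. That call held in 16 of 26 alternatives, and 7 fits with a single library left out lost it. Ptpn11, the phosphatase SHP2 that couples Trk to ERK, was called for CFA in WT, from 272 ± 8.496 to 301 ± 4.33 CPM (log2 change 0.15, edgeR adjusted p = 0.0108). In RGS4KO libraries it went from 276 ± 7.97 to 294 ± 5.97 CPM (log2 change 0.09, edgeR adjusted p = 0.345). Averaged over both genotypes, CFA gave Ptpn11 a log2 change of 0.12 (edgeR adjusted p = 0.00290), called in all 25 alternatives. It was the 1 called gene of the 29 for that average, where 1.81% of all genes were called. In the ERK and CREB list of 26, Rps6ka2, an ERK-activated kinase, was the called gene for CFA in WT, from 90.3 ± 3.71 to 78.0 ± 3.78 CPM (log2 change -0.21, edgeR adjusted p = 0.00672). Each was the 1 called gene of its list for CFA in WT, where 2.23% of all genes were called, so these counts are near the background. For CFA in WT, the calls of Ptpn11 and Rps6ka2 held in 25 of 26 alternatives. They were lost without WT naive libraries 2 and 3 together (adjusted p = 0.181 and 0.149).

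Among 30 genes known to be induced by BDNF or ERK signalling, 5 fell (Fos, Nr4a3, Junb, Egr4 and Egr1) and 1 rose (Inhba) in WT after CFA. Over all genes 2.23% were called there, of which 148 fell and 261 rose. The list's median log2 change was -0.10, against -0.00 over all genes, and its direction as a list was not tested. The 5 that fell are also textbook activity-induced transcription factor genes, which many stimuli raise. Fos was at 21.1 ± 4.79 CPM in WT naive and 10.3 ± 1.04 CPM in WT CFA libraries (SD, n = 4 each; log2 change -1.04, edgeR adjusted p = 0.0350). Nr4a3 was at 6.76 ± 1.20 and 4.22 ± 0.190 CPM (log2 change -0.69, edgeR adjusted p = 0.0108). In RGS4KO libraries Fos was at 16.3 ± 5.62 and 10.2 ± 1.94 CPM, a log2 change of -0.69 with an edgeR adjusted p of 0.458, and 0 of the 30 passed there. The average effect of CFA over both genotypes called the same 5 genes down and Inhba up, where 1.81% of all genes were called. The edgeR adjusted p was 0.00274 for Nr4a3 (called in all 25 alternatives) and 0.0185 for Fos (called in 24 of 25). The calls of Egr1, Egr4, Junb and Inhba held in 7 to 12 of the 25. The difference between the genotypes' responses was 0.35 for Fos (edgeR adjusted p = 0.769), and none of the 30 passed that test. The count of 6 for CFA in WT was 1 without WT naive libraries 2 and 3 together. It ran from 1 to 8 with single libraries left out, and was 3 or less without any 1 of WT naive libraries 2, 3 and 4 and WT CFA libraries 9 to 12. Nr4a3 kept its call for CFA in WT with each library left out. Fos lost that call without any 1 of the same 7 libraries (adjusted p of up to 0.301 over all alternatives).

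Outside the neurotrophin family, single growth factors rose in WT. Of 29 tested neurotrophic factors and receptors of other families, 4 rose after CFA in WT, namely Igf1, Manf, Nrg1 and Fgf1, and 0 fell, where 2.23% of all genes were called. Igf1, insulin-like growth factor 1, went from 6.64 ± 0.461 to 9.54 ± 1.59 CPM (SD, n = 4 each; log2 change 0.52, edgeR adjusted p = 0.0106). Manf, a secreted factor induced by stress of the endoplasmic reticulum, went from 39.4 ± 3.92 to 49.0 ± 3.10 CPM (log2 change 0.31, edgeR adjusted p = 0.0134). In RGS4KO libraries Igf1 was at 8.43 ± 1.09 CPM without treatment and 7.41 ± 0.422 CPM after CFA. Manf was at 36.2 ± 1.44 and 43.1 ± 2.72 CPM there. The average effect of CFA over both genotypes called 2 of the 29 up and 0 down, where 1.81% of all genes were called. Manf was 1 of them (log2 change 0.28, edgeR adjusted p = 0.00262) and kept that call in all 25 alternatives. The difference between the responses was -0.71 for Igf1 (unadjusted p = 0.000101, edgeR adjusted p = 0.0879), which did not pass, though DESeq2 called it. The count of 4 was 0 without WT naive libraries 2 and 3 together, and 2 without any 1 of WT naive library 3 and WT CFA libraries 9 and 11. Nrg1 lost its call without any 1 of those libraries or WT naive library 1. Fgf1 lost it without any 1 of 11 libraries (WT naive 1 and 3, RGS4KO naive 6, WT CFA 9 to 12 and RGS4KO CFA 13 to 16). Igf1 and Manf kept theirs with each single library left out.

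Fgf1, a fibroblast growth factor, was the 1 gene of that list called for genotype in CFA libraries. It was at 237 ± 11.7 CPM in WT CFA and 165 ± 3.32 CPM in RGS4KO CFA libraries (SD, n = 4 each) and fell with the RGS4KO label by 0.52 on the log2 scale (edgeR adjusted p = 0.00277). In naive libraries it was at 187 ± 25.4 and 164 ± 12.7 CPM. The call in CFA libraries held in all 26 alternatives. Averaged over both treatments, Fgf1 fell with the RGS4KO label by 0.35 (edgeR adjusted p = 0.00227), called in all 25 alternatives. For that average 3.73% of all genes were called. In RGS4KO libraries after CFA, 0 members of all 8 lists passed, where 0.185% of all genes did, so the 0 is near the background.

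For each of the 6 genes, the 5 genes with the most similar profile were found by Pearson r of log2 CPM over the 16 libraries, among 15029 genes averaging 1 CPM or more. For Ngfr these were Pltp (r = 0.89, 0.77 within groups), Rasa4 (0.86, 0.65 within groups), Bicdl1 (0.85), B4galt3 (0.82) and Cplx2 (0.81). For Ntrk2 they included Agt, the astrocyte-made angiotensinogen (r = 0.93, 0.91 within groups), Sh3rf1 (0.90) and the potassium channel gene Kcnk2 (0.89). Ntrk3 was nearest to Cdk13 (0.87), Hmcn1 (0.87), Afdn (0.86) and Bcl11a (0.86). Sort1 was nearest to Kcnab3 (0.96), Dennd5a (0.95), Prr5l (0.94), Cgnl1 (0.93) and Oxsr1 (0.93). Bdnf had weaker neighbours, led by the neuropeptide gene Adcyap1 (r = 0.79), Snora28 (0.77) and Thoc7 (0.75). For Ntf3 they were led by Dsg2 (r = 0.84), Gm11992 (0.81) and Jade1 (0.80). These are descriptions of the highest of many values and carry no test.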

How the data were processed

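Bulk RNA sequencing of 16 pooled punches was analysed in 4 groups of 4 libraries, taken from genotype and treatment labels. The authors deposited raw read counts per Ensembl gene, without normalization. Per the labels' protocols the TruSeq version 2 kit was used, which does not mark strand. The submitters' processing notes name TopHat, DESeq2 and build mm10. Which counter, annotation and strand option made the tables is not given in the sources used here. Lines for reads without a gene (38% to 39.9% of listed reads) were left out. Symbols and positions came from GENCODE M21 (37607 of 38924 IDs matched), whose gene models may be of another release than those counted.

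The counts were fitted with edgeR 4.0.16 in R 4.3.3 (filterByExpr with a minimum count of 10, TMM, robust quasi-likelihood, all 16 libraries, 1 mean per group, 7 contrasts), and p-values were two-sided and Benjamini-Hochberg adjusted over 18350 genes, with calls under 0.05. The script was tested on simulated data. DESeq2 1.42.0 was an alternative, among 26. Levels are CPM on TMM library sizes. Single genes were also compared by exact permutation, and correlations by permutation with 100000 resamples. Whether libraries come from separate litters or cages is not stated, so p-values measure the spread between these pools.

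The 6 genes, 8 pathway lists and 15 marker lists were chosen with earlier results of these data known. Named outside the 6 are Rgs4, Ntf5, called list members (up to 6 by lowest p), up to 5 most similar genes and marker genes; not every such gene is named, and some family members are not reported here. Of 312 list genes, 311 matched. Overlapping genes were looked up for the neurotrophin family genes only; other named genes may share reads with a neighbour or an antisense gene.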

Additional observations from a re-analysis of the deposited data

Results flagged for a closer look

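In groups of 4 libraries, a value was singled out when its gap to the nearest library as a share of the group's range exceeded Dixon's 95% critical value. Of 28 groups examined (7 neurotrophin family genes in 4 groups), 2 met this, and chance gives about 1 in 20. Bdnf in WT CFA library 9 was at 34.05 CPM, while the other 3 libraries of that group lay between 32.0 and 32.4 CPM. Ntf5 in WT naive library 4 was at 0.217 CPM, while the others lay between 0.0906 and 0.109 CPM, from at most 8 counts each.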

How the results depend on the processing

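Ngfr kept its direction in all 26 alternatives for CFA in WT (log2 change -0.86 to -0.65) and for CFA in RGS4KO (0.24 to 0.39, adjusted p 0.511 to 0.894 by edgeR or DESeq2). No tested gene of the 6 was called in any alternative, except Ntrk3 for CFA in WT without RGS4KO naive library 8 (0 to 1 called with single libraries left out). Ntf3 could not be fitted in 2 alternatives, a filter at 1 CPM and thinning to the shallowest library. No paired analysis was possible because no library number is shared between groups. Depth limits Ntf3 and Ntf5, which had at most 28 counts in a library.

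Counts of called genes moved by over 1.5 times as follows, and the cause was not tested beyond fewer samples or counts. With DESeq2 they were 456 for the naive genotype comparison (266), 449 for the CFA genotype comparison (294), 764 for CFA in WT (409), 87 for CFA in RGS4KO (34), 86 for the interaction (12) and 567 for the CFA average (332), with the edgeR count in parentheses. Thinned to the shallowest library, they were 184 for the CFA genotype comparison, 252 for CFA in WT, 455 for the genotype average (685) and 206 for the CFA average. Without RGS4KO naive libraries 7 and 8, they were 92 for the naive genotype comparison, 681 for CFA in WT and 17 for CFA in RGS4KO. Without WT naive libraries 2 and 3, they were 88 for the naive genotype comparison, 59 for CFA in WT, 5 for the interaction, 412 for the genotype average and 158 for the CFA average. The interaction had 31 with no filter on low counts and 7 without robust estimation.

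With single libraries left out, counts ran from 135 to 296 for the naive genotype comparison, 195 to 407 for the CFA genotype comparison, 178 to 754 for CFA in WT, 16 to 42 for CFA in RGS4KO, 5 to 27 for the interaction and 204 to 493 for the CFA average. The lowest came without RGS4KO naive library 6, RGS4KO CFA library 16, WT naive library 2, RGS4KO naive library 6 (and RGS4KO CFA libraries 15 and 16), RGS4KO naive library 8 (and RGS4KO CFA library 16) and WT naive library 2.

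Uncalled log2 changes near 0 changed sign in some alternatives, and the cause was not tested. With single libraries left out, Bdnf ran from -0.044 to 0.017 for the naive genotype comparison and from -0.0029 to 0.033 for the CFA average. Ntf3 ran from -0.0055 to 0.37 for the CFA genotype comparison, -0.19 to 0.0016 for the genotype average and -0.12 to 0.062 for the CFA average. Sort1 ran from -0.016 to 0.041 for the CFA genotype comparison and from -0.030 to 0.060 for CFA in RGS4KO. Ntrk3 ran from -0.00099 to 0.080 for CFA in RGS4KO and from -0.022 to 0.017 for the genotype average, and Ntrk2 from -0.018 to 0.072 for the interaction. Ngfr, not tested there, ran from -0.031 to 0.086 for the genotype average and kept its sign in 17 of 25 alternatives. Without RGS4KO naive libraries 7 and 8 the turned values were 0.029 (Bdnf, the naive genotype comparison), -0.0020 (Ntrk3, CFA in RGS4KO), -0.0073 (Ntrk2, interaction), 0.018 (Ntrk3, genotype average) and -0.0086 (Bdnf, CFA average). Without WT naive libraries 2 and 3 they were 0.00024 (Ntf3, CFA in WT), 0.011 (Ntrk3, genotype average), 0.090 (Ntf3, genotype average) and 0.12 (Ntf3, CFA average).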
